A study of Homo sapiens with 8 samples.

Results

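The libraries compared here are 4 of the 8 RNA-seq libraries of the series, 2 of OVCAR3 cells transfected with a TARG1 siRNA (siTARG1) and 2 of OVCAR3 cells transfected with a control siRNA (siControl), taken by the siRNA named in their labels. OVCAR3 is a human ovarian cancer cell line. The siRNA was used at 30 nM and the cells were collected after 48 h, and total RNA was taken from lysates that also served for ribosome profiling. The other 4 libraries are OVCAR3 lines treated for 48 h with 1 µg/ml doxycycline, which switches on an shRNA that knocks down endogenous RACK1 together with re-expression of HA-tagged wild-type RACK1 (RACK1-WT, 2 libraries) or of RACK1 with its sites of mono-ADP-ribosylation mutated (RACK1-Mut, 2 libraries). They were not transfected with siRNA, carry the guide of their own shRNA and belong to another experiment. Their levels were therefore used only as a reference that shows which siRNA arm a gene had left. The RACK1 libraries also entered the fit of all 8 libraries, and so the filter, the scaling and the estimate of spread behind each p-value. Of 14024 genes tested, 9010 were well counted, with a mean of at least 500 exon counts over the 4 siRNA libraries, and the genes described are mostly of these. The study lists more than 1 siRNA for TARG1 and does not say which was used here, so all values stand for the libraries as labelled.

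TARG1, the product of the OARD1 gene, is an ADP-ribosyl hydrolase that removes ADP-ribose from acidic residues of proteins and so reverses mono-ADP-ribosylation (MARylation). An siRNA loads a short guide strand into an Argonaute protein, which cleaves the transcript that pairs with the guide along its length. Like a miRNA, a guide can also lower transcripts that pair only with its seed, the bases near its 5′ end, most often through sites in the 3′ untranslated region (3′ UTR).

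The exon counts of the 4 siRNA libraries summed to between 31498718 and 41901528, and those of the 4 RACK1 libraries to between 30989049 and 42668783. Across genes, log2 levels correlated with an r of 0.9954 between the siControl libraries and 0.9955 between the siTARG1 libraries, of 0.9776 to 0.9804 between the siRNA groups, and of 0.940 to 0.945 between siRNA and RACK1 libraries. These correlations share genes and are given as a description. The study describes its genomic experiments in general as done on independent biological samples, while the labels number the 2 libraries of a group only as replicates. Each p-value rests on the spread between replicates within all 4 groups, those of RACK1 included. Of the ovarian carcinoma markers looked for, 17 had a row. Of these, 14 with siControl and 15 with siTARG1 had a mean of at least 1 CPM (counts scaled to library size by TMM). PAX8, EPCAM and WFDC2 were well detected in every library, while CLDN4 and ESR1 stayed below 1 CPM in each. The 17 markers summed to 4318 to 4477 CPM with siControl, 2988 to 3097 CPM with siTARG1 and 4335 to 4448 CPM in the RACK1 libraries. The fall of the sum lay mainly in KRT18 and KRT8. KRT18 went from 1323 and 1260 CPM to 505 and 535 CPM, and KRT8 from 1195 and 1130 CPM to 554 and 544 CPM. The other markers had no common direction, with MUC16 at 492 and 413 CPM against 239 and 320 CPM and CDH1 at 105 and 105 CPM against 296 and 297 CPM. The 15 immune markers looked for summed to at most 9.68 CPM in a siControl library and 8.25 CPM in a siTARG1 library, with CD3E, CD3D, MS4A1 and NKG7 at 0 in all 4. The 12 fibroblast and endothelial markers summed to between 10.96 and 15.4 CPM in these libraries. In bulk RNA, a lower level in each cell and fewer cells with the transcript cannot be told apart.

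OARD1 is at chromosome 6, 41001366 to 41065526, minus strand, of GRCh37. It was at 48.5 and 52.03 CPM in the siControl libraries and 3.098 and 3.97 CPM in the siTARG1 libraries, which leaves 7.04% of the siControl mean, and the RACK1 libraries were at 39.3 to 46.2 CPM. The siTARG1 arm therefore stood apart from the other 6 libraries. Over the coding sequence the levels were 17.0 and 18.4 CPM with siControl and 0.922 and 1.60 CPM with siTARG1. Over the 3′ UTR they were 29.7 and 32.0 CPM against 1.75 and 1.94 CPM, so the loss was seen along the transcript, and the change of the 3′ UTR relative to the coding sequence was -0.24 on the log2 scale (SE 0.21, adjusted p = 1). OARD1 had the lowest log2 fold change of all well-counted genes past the threshold, -3.83 (SE 0.12, adjusted p = 1.2e-10).

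Beyond the targeted gene the comparison was broad. With edgeR's quasi-likelihood test and a Benjamini-Hochberg adjusted p under 0.05, 46.6% of all genes tested passed, 23.5% of them higher and 23.1% lower in siTARG1. Among well-counted genes 52.4% passed, with 25.6% (2307 genes) higher and 26.8% (2417 genes) lower. Most of these changes were small. The median log2 fold change was 0.01 over all genes and -0.01 over well-counted genes, and 90% of well-counted genes lay between -0.78 and 0.69, the 5th and 95th percentiles. A change of more than 2-fold past the threshold was seen in 8.0% of all genes (3.84% higher and 4.16% lower). Among well-counted genes, 155 (1.72%) were more than 2-fold higher and 254 (2.82%) more than 2-fold lower. These shares are the background for each group of genes below.

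**Figure D1:**
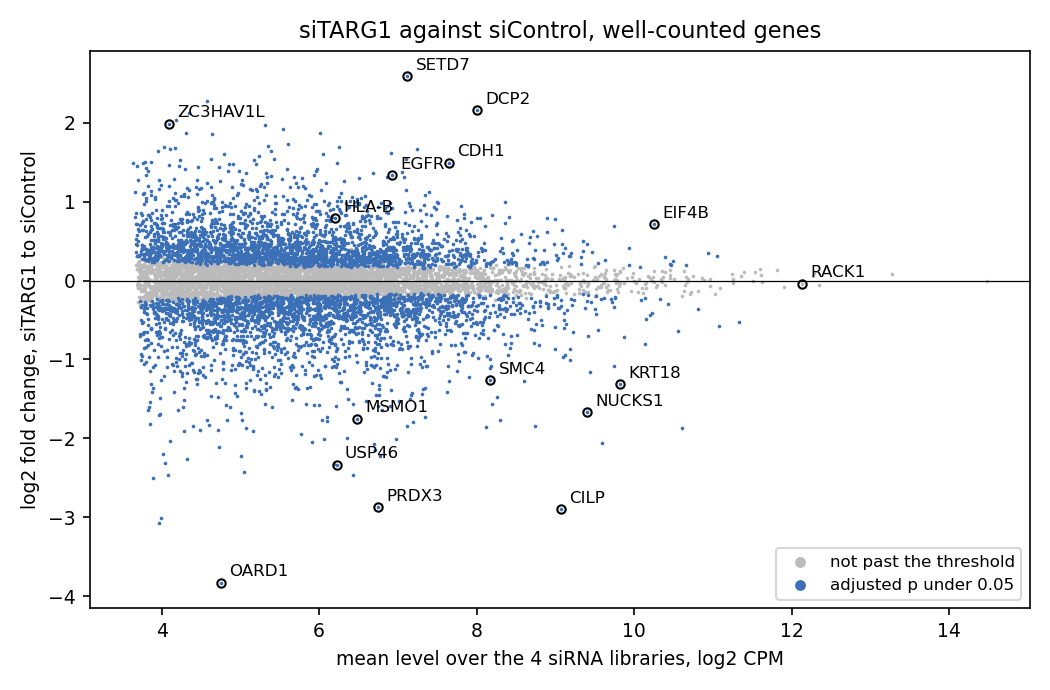
Log2 fold change of siTARG1 to siControl (vertical axis) against the mean level over the 4 siRNA libraries in log2 CPM (horizontal axis) for the 9010 well-counted genes, with 1 point per gene, blue past an adjusted p of 0.05 and grey otherwise. Circled genes are named. OARD1 lies lowest at -3.83 and SETD7 highest at 2.59, and most points lie within 1 of 0.

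The strongest falls in well-counted genes covered enzymes, receptors and secreted proteins with no common textbook role. PRDX3, the mitochondrial thioredoxin-dependent peroxidase, was at 195 and 184 CPM with siControl and 25.7 and 26.3 CPM with siTARG1, a log2 fold change of -2.87 (SE 0.07, adjusted p = 2.8e-11). The RACK1 libraries were at 182 to 198 CPM, around the siControl libraries, so the siTARG1 libraries were the ones set apart. USP46, a deubiquitinase, showed the same pattern, at 123 and 126 CPM against 22.6 and 26.9 CPM (log2 fold change -2.33, SE 0.08, adjusted p = 2.3e-10), with 103 to 108 CPM in the RACK1 libraries. PLEKHB2, a pleckstrin homology domain protein, went from 187 and 173 CPM to 39.4 and 37.8 CPM (log2 fold change -2.22, SE 0.07, adjusted p = 1.4e-10), and the RACK1 libraries were at 142 to 156 CPM. In these 3 genes the siTARG1 libraries did not overlap any of the other 6 libraries. F2R, the thrombin receptor PAR1, was at 32.7 and 33.7 CPM and fell to 6.79 and 6.99 CPM (log2 fold change -2.27, SE 0.08, adjusted p = 2.6e-10). Its RACK1 level, 61.01 to 64.9 CPM, was above that of both siRNA arms.

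Other genes among the 15 strongest falls had RACK1 levels on the side of siTARG1. CDKN1A, which encodes the cyclin-dependent kinase inhibitor p21, was at 29.9 and 27.3 CPM with siControl and 5.16 and 5.17 CPM with siTARG1, a log2 fold change of -2.47 (SE 0.11, adjusted p = 1.6e-09). The RACK1 libraries were at 3.72 to 4.96 CPM, so here the siControl libraries were the high ones. RBP4, the plasma carrier of retinol, went from 144 and 148 CPM to 25.8 and 26.9 CPM (log2 fold change -2.47, SE 0.08, adjusted p = 1.6e-10) with RACK1 libraries at 27.3 to 35.1 CPM. SLC16A10, an aromatic amino acid transporter, was at 27.04 and 23.3 CPM against 4.56 and 4.33 CPM (log2 fold change -2.504, SE 0.12, adjusted p = 2.8e-09), and AGR2, a disulfide isomerase of the endoplasmic reticulum, was at 54.2 and 51.5 CPM against 11.2 and 11.5 CPM (log2 fold change -2.22, SE 0.13, adjusted p = 1.9e-08). For both, the RACK1 libraries were near or overlapped the siTARG1 libraries, at 3.304 to 5.11 and 12.9 to 18.8 CPM. PLEKHS1 behaved in the same way, at 28.2 and 26.7 CPM against 4.33 and 6.77 CPM, and FFAR4, a receptor for long-chain fatty acids, was at 27.3 and 28.7 CPM against 3.500 and 3.16 CPM with RACK1 libraries lower still, at 1.33 to 2.08 CPM.

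The remaining strong falls had RACK1 levels between the arms. CILP, a matrix protein, fell from 1003 and 895 CPM to 126 and 129 CPM (log2 fold change -2.89, SE 0.08, adjusted p = 5.1e-11), and PHLDA1 from 28.7 and 27.8 CPM to 3.33 and 3.68 CPM (log2 fold change -3.01, SE 0.12, adjusted p = 3.8e-10). Their RACK1 libraries were at 285 to 317 CPM and 7.87 to 9.74 CPM, outside the range of either siRNA arm. TENT5C, a non-canonical poly(A) polymerase, and GCNT2, a glycosyltransferase that branches polylactosamine chains, had log2 fold changes of -2.43 and -2.32, again with the RACK1 libraries between.

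The strongest rises were led by SETD7, a lysine methyltransferase. It was at 38.02 and 41.2 CPM in the siControl libraries and 229 and 249 CPM in the siTARG1 libraries, a log2 fold change of 2.59 (SE 0.08, adjusted p = 5.7e-11). The RACK1 libraries were at 198 to 213 CPM, so it was siControl that stood low. CAV2, or caveolin-2, was at 6.998 and 9.52 CPM against 33.2 and 46.01 CPM (log2 fold change 2.27, SE 0.16, adjusted p = 6.4e-08) with RACK1 libraries at 37.1 to 44.1 CPM. CARNMT1, a carnosine methyltransferase, was at 6.87 and 8.503 CPM against 28.6 and 37.9 CPM (log2 fold change 2.12, SE 0.14, adjusted p = 5.9e-08), with RACK1 libraries at 33.04 to 39.1 CPM. NXPE3 and ARHGAP23, a GTPase-activating protein, also had RACK1 levels near siTARG1, at log2 fold changes of 2.03 and 1.87. TBC1D5, a Rab GTPase-activating protein, was at 27.4 and 28.1 CPM with siControl, 104 and 99.99 CPM with siTARG1 and 138 to 145 CPM in the RACK1 libraries (log2 fold change 1.88, SE 0.07, adjusted p = 2.6e-10).

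DCP2, the catalytic subunit of the mRNA decapping complex, was at 92.9 and 95.1 CPM with siControl and 411 and 432 CPM with siTARG1, a log2 fold change of 2.17 (SE 0.07, adjusted p = 1.2e-10). With 209 to 237 CPM in the RACK1 libraries, both arms were off the reference, in opposite directions. GALNT1, which starts mucin-type O-glycosylation, PAQR3, TULP3, which works in ciliary trafficking, INPP5A, an inositol phosphatase, and PDHX, a subunit of the pyruvate dehydrogenase complex, were also higher with RACK1 levels between the arms, at log2 fold changes of 1.98, 1.92, 1.86, 1.71 and 1.69. For 3 of the 15 genes the RACK1 libraries were nearer to siControl. ZC3HAV1L, a relative of the antiviral factor ZAP, was at 6.82 and 6.900 CPM and rose to 27.9 and 26.7 CPM (log2 fold change 1.99, SE 0.10, adjusted p = 5.4e-09, RACK1 libraries 9.37 to 11.1 CPM). TMEM47, a membrane protein, rose from 21.9 and 23.02 CPM to 66.6 and 83.3 CPM with RACK1 libraries at 20.8 to 25.1 CPM. LMO1, a LIM-only transcriptional cofactor, rose from 7.67 and 7.85 CPM to 27.4 and 22.8 CPM with RACK1 libraries at 8.39 to 9.88 CPM. No change of method or left-out library ended the call of any of these 30 genes.

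**Figure D2:**
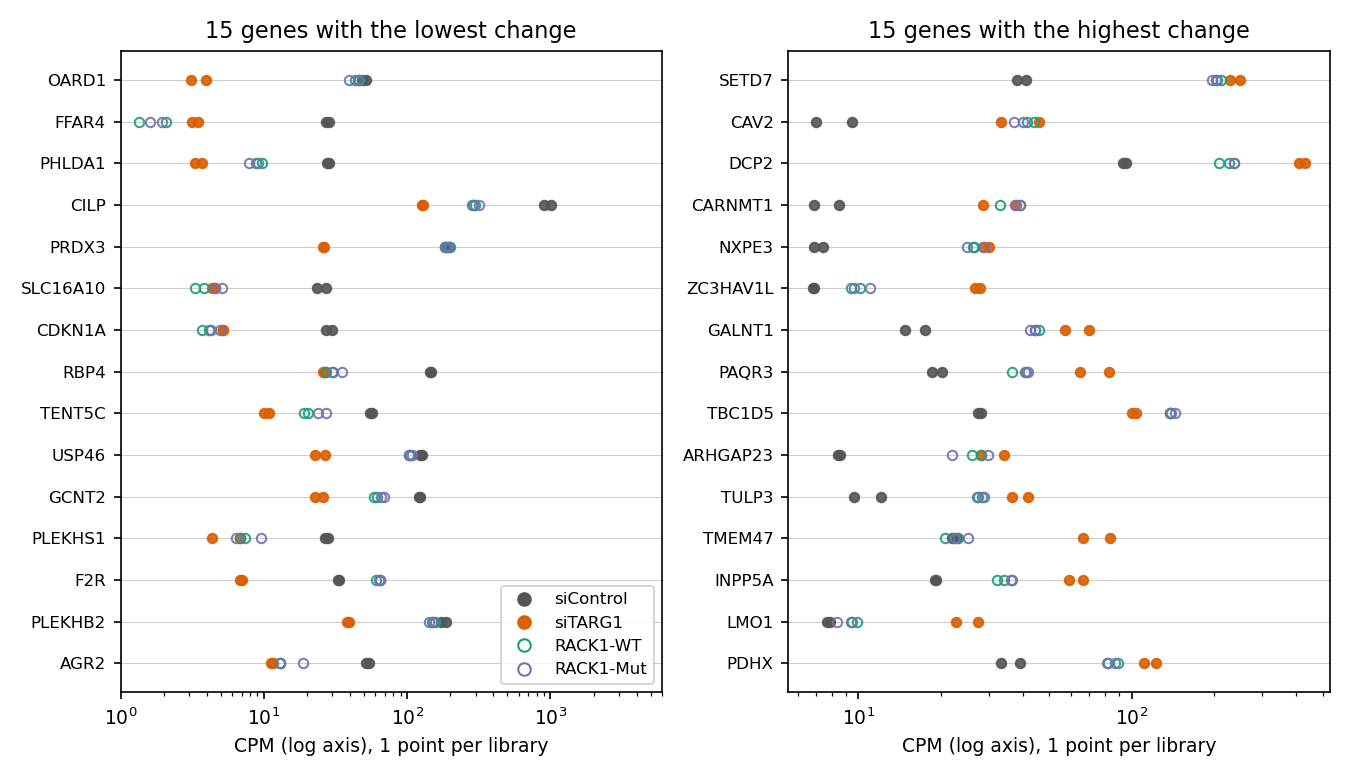
Level in CPM (log axis) of the 15 well-counted genes with the lowest and the 15 with the highest log2 fold change, with 1 point per library, filled grey for siControl, filled orange for siTARG1 and open for RACK1-WT and RACK1-Mut. The 4 RACK1 libraries lie among the siControl points for PRDX3, just below them for OARD1 and close to the siTARG1 points for CDKN1A, RBP4 and SETD7.

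To say over all genes which arm had moved, the mean of the 4 RACK1 libraries was placed on a line from siControl (0) to siTARG1 (1) in log2 CPM. A gene was near siControl from -0.25 to 0.25, near siTARG1 within the same distance of 1, between these ranges, or beyond either arm. Of the 254 well-counted genes more than 2-fold lower in siTARG1, 92 (36.2%) had RACK1 levels near siControl, 40 beyond siControl, 69 between, 31 near siTARG1 and 22 beyond siTARG1. Of the 155 more than 2-fold higher, 46 (29.7%) were near siTARG1, 28 beyond siTARG1, 55 between, 22 near siControl and 4 beyond siControl. In the strong falls, then, the siTARG1 libraries were more often the ones off the reference, and in the strong rises the siControl libraries were. Over all 6537 genes past the threshold the split was nearly even, with 1053 (16.1%) near siControl and 958 (14.7%) near siTARG1. Larger shares were beyond an arm, with 1628 (24.9%) beyond siControl and 1552 (23.7%) beyond siTARG1, and 1346 (20.6%) were between. For genes beyond an arm the RACK1 level lay outside the range of both siRNA arms. The RACK1 lines also differ from the siRNA cells in doxycycline, the shRNA, RACK1 and experiment, and the share of each in these places was not tested. The median of the absolute gap to the RACK1 mean was 0.41 log2 units for siTARG1 and 0.39 for siControl over all genes.

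The strongly changed genes shared short sequences in their 3′ UTRs. For 13496 genes with a 3′ UTR in the annotation, the longest 3′ UTR was searched for every 7-base word found in at least 200 genes, and the word with the largest mean difference in log2 fold change was taken in each direction, after adjustment for length and GC content. The words were chosen on the same fold changes, so all values that follow are a description with no test. On the lower side the word was GAACATA, and on the higher side CGAATAT. Each overlaps by 6 bases with another leading word, TGAACAT, the second on the lower side, and GAATATA, the third on the higher side. Joining each pair gives TGAACATA and CGAATATA, and these partners were picked after their values were seen. Searches were on the transcript strand only. Windows were taken only for words of the set that matches a gene's direction, so they cannot show a link between word and direction. Named genes also hold words of the opposite set. CDKN1A and HIF1A, both lower, hold GAATATA, while NXPE3 and CTSL, both higher, hold TGAACAT and GAACATA. AGO2, also higher, holds TGAACAT and GAATATA, and G3BP1, not past the threshold, holds TGAACAT. Among genes named above or in the lists below, the following windows from GRCh37 show the words in capitals within the 3′ UTR, first for genes that were lower.
OARD1, chr6:41035054-41035073, minus strand: accagTGAACATtttggatg
PRDX3, chr10:120927736-120927758, minus strand: tttctacaGAACATAatttgcct
USP46, chr4:53462420-53462443, minus strand: ataaactgTGAACATAtttttgtt
PLEKHB2, chr2:131905007-131905029, plus strand: tacttggaGAACATAtcccacat
F2R, chr5:76029761-76029783, plus strand: tttagcccTGAACATttcatggt
SMC4, chr3:160152033-160152056, plus strand: aaatactaTGAACATAtttttgta
NUCKS1, chr1:205685628-205685651, minus strand: acaggactTGAACATAaatagcag
For genes that were higher, the windows taken in the same way show the other pair of words.
SETD7, chr4:140428692-140428714, minus strand: gatagaatGAATATAtttaaatg
DCP2, chr5:112349740-112349762, plus strand: agcttctgGAATATAatgtgcat
TBC1D5, chr3:17199836-17199858, minus strand: taaatcctGAATATAttgtgttt
CDH1, chr16:68869266-68869289, plus strand: agctatatCGAATATAgttctgtg
SMAD5, chr5:135514768-135514791, plus strand: cccatcaaCGAATATAgactcttc
The words shown begin between base 6 of the OARD1 3′ UTR and base 4111 of that of SETD7. Several copies occurred in some of these genes. F2R held 3 copies of its word and NUCKS1 held 4 of TGAACAT. The higher word shown was present in 5 copies in TULP3 and in 3 in DCP2, which also held a lower word. Of the 15 strongest falls, FFAR4, CILP, CDKN1A, RBP4, PLEKHS1 and AGR2 held neither lower word, and of the 15 strongest rises, CARNMT1, NXPE3, ARHGAP23, INPP5A and LMO1 held neither higher word.

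Of the 249 well-counted genes with a 3′ UTR that were more than 2-fold lower, 145 (58.2%) held GAACATA or TGAACAT, against 20.8% of all 8680 well-counted genes. Of the 153 that were more than 2-fold higher, 81 (52.9%) held CGAATAT or GAATATA, against 17.2%. On the opposite side each set stayed near its background, with the higher words in 16.1% of the strong falls and the lower words in 19.6% of the strong rises. Genes with these words have longer 3′ UTRs, with a median of 3531.5 bases for GAACATA against 1306.5 bases over all genes.

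The difference per gene was modest for most holders of a word and was larger for the 8-base lower word and for 2 or more copies of it, whose holders also have longer 3′ UTRs, with medians of 3670 and 7522 bases. These medians are not adjusted for length. The median log2 fold change was -0.14 for the 1276 genes with GAACATA, -0.23 for the 514 with TGAACATA and -0.43 for the 40 with at least 2 copies of the 8-base word. Of those 514 genes, 45.1% passed the threshold as lower and 11.1% as higher. On the other side the median was 0.22 for the 232 genes with CGAATAT and 0.23 for the 66 with CGAATATA, of which 43.9% passed as higher and 10.6% as lower. Genes with neither set, 9607 in all, had a median of 0.01, and the 847 genes with both sets had a median of -0.0018. With an 8-base word in the coding sequence and no word of the same set in the 3′ UTR, the medians were -0.06 over 232 genes (TGAACATA) and 0.10 over 56 genes (CGAATATA). Of the 232 genes 36.2% passed as lower and 18.1% as higher, and of the 56 genes 33.9% passed as higher and 10.7% as lower. Over all genes with a 3′ UTR 23.1% passed as lower and 23.7% as higher. Words of the other set in the 3′ UTR were allowed there.

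The reference level differed by set of words. Genes with TGAACATA lay at a median of -0.34 log2 units from the RACK1 mean in siTARG1 and of -0.01 in siControl. For at least 2 copies the medians were -0.64 and 0.10. Genes with CGAATATA lay at -0.06 in siTARG1 and at -0.40 in siControl. The lower words thus went with siTARG1 libraries below the reference, and the higher words with siControl libraries below it. Genes with both sets were below the reference in both arms, at -0.14 in siTARG1 and -0.15 in siControl. Their median 3′ UTR was 4405 bases, against 1306.5 over all genes. None of these gaps to the RACK1 mean was adjusted for length, and the part of length in them was not tested. Between RACK1-Mut and RACK1-WT, which share the RACK1 shRNA, the median difference was 0.01 for both 8-base words. No human mature miRNA in the RefSeq table has bases 2 to 8 that pair with any of the 4 words. Shorter or shifted matches were not looked up, and the part of miRNAs in these values was not tested. The guide sequences of the siRNAs were not used here, and their part in these values was not tested.

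**Figure D3:**
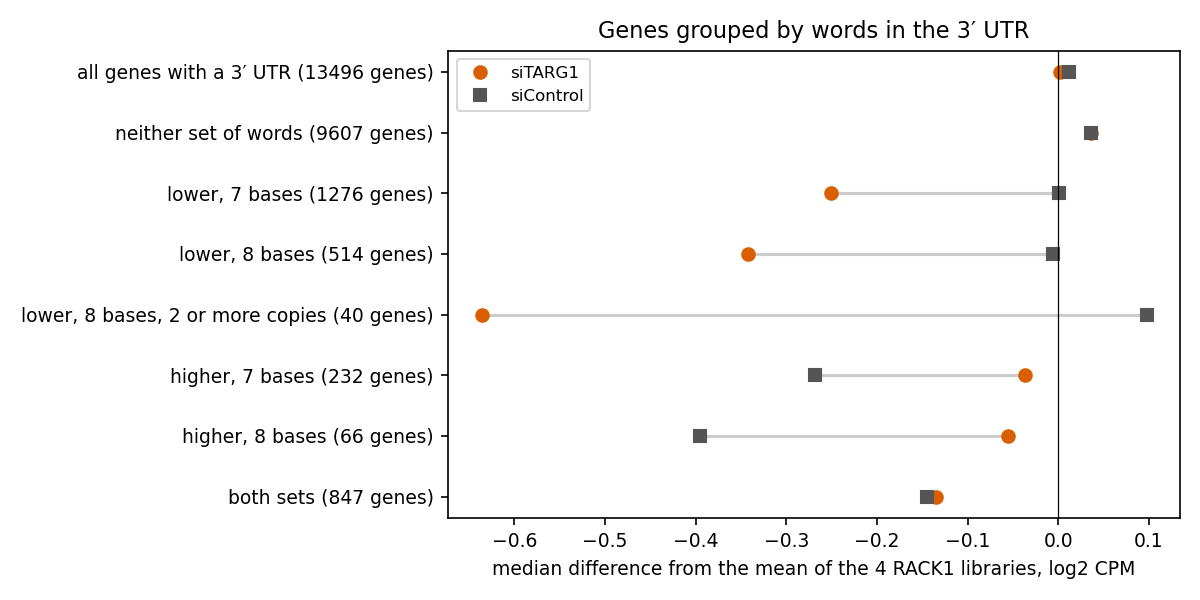
Median difference in log2 CPM from the mean of the 4 RACK1 libraries (horizontal axis) for genes grouped by the words in their 3′ UTR (vertical axis, with the number of genes), orange circles for siTARG1 and grey squares for siControl. The circles move left for the lower words, to -0.64 with at least 2 copies, the squares move left for the higher words, to -0.40, and both symbols overlap for genes with neither set.

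Within the strong falls, the 145 genes with a lower word had RACK1 levels near siControl in 44.8% and near or beyond siTARG1 in 7.59% and 2.07%. The 104 without one were near siControl in 24.04% and near or beyond siTARG1 in 19.2% and 17.3%. PRDX3 and CDKN1A above are examples of each kind. In the strong rises the shares near siTARG1 were closer together, 29.6% of 81 genes with a higher word and 30.6% of 72 without.

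**Figure D4:**
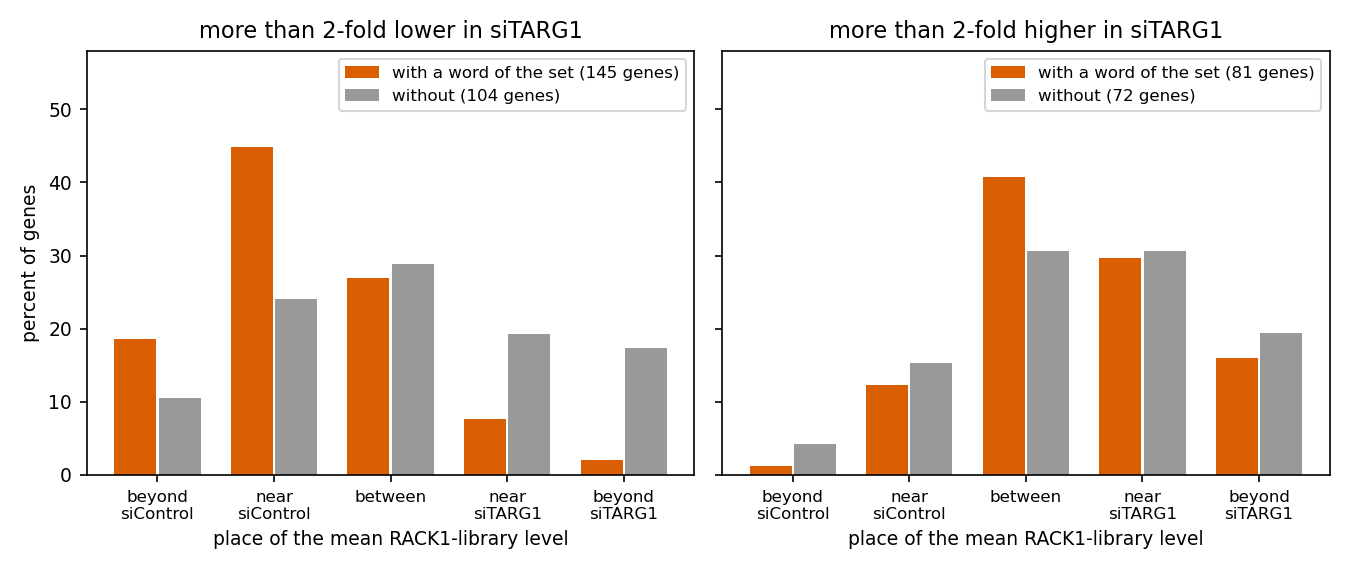
Percent of well-counted genes changed more than 2-fold (vertical axis) whose RACK1 level falls beyond, near or between the siRNA arms (horizontal axis), for falls (left) and rises (right), orange for genes with a word of the set of that direction in the 3′ UTR and grey for genes without. Among falls the orange bars are concentrated at near siControl (44.8%), while the grey bars are spread over all 5 places.

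Counts over the 3′ UTR and the coding sequence were compared to see whether a change was shared by both regions. Of 9958 genes, 5 (0.0502%) passed, 4 with a 3′ UTR that fell relative to the coding sequence and 1 with a rise, and 440 had an unadjusted p under 0.05. NUCKS1, a nuclear DNA-binding protein, was at 742.9 and 810.4 CPM over its 3′ UTR with siControl and at 184 and 219 CPM with siTARG1, against 239.9 and 271 CPM and 112 and 132 CPM over its coding sequence. Both regions fell and the 3′ UTR fell by 0.88 log2 units more (SE 0.10, adjusted p = 0.032). ITSN1, an endocytic scaffold, was at 54.3 and 62.2 CPM with siControl and 53.2 and 55.2 CPM with siTARG1 over the coding sequence, while its 3′ UTR was at 7.40 and 7.91 CPM against 2.81 and 2.20 CPM (relative change -1.51, SE 0.17, adjusted p = 0.024). AQR, a spliceosomal helicase, had a 3′ UTR at 7.07 and 6.57 CPM with siControl and 14.4 CPM in both siTARG1 libraries, against 104.9 and 96.7 CPM and 108 and 117 CPM over its coding sequence (relative change 0.92, SE 0.10, adjusted p = 0.024). All 3 hold words of the set that matches their direction, against 19.2% of all genes with a 3′ UTR for the lower words and 15.9% for the higher words. Their 3′ UTRs are long, at 5458 bases (NUCKS1), 11561 bases (ITSN1) and 5010 bases (AQR), against a median of 1306.5 bases over all genes. A link between the words and these calls was not tested. The other 2 calls were rows that join the neighbouring genes P2RX5 with TAX1BP3 and EIF4A1 with SENP3 and cannot be assigned to a gene. This count is fragile. It was 0 with only the 4 siRNA libraries, and 0, 1, 7 and 3 without siControl 1, siControl 2, siTARG1 1 and siTARG1 2.

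Mitosis genes were more often lower than higher. Of 51 mitosis genes tested, 30 were lower and 6 higher, a share of 70.6% against 46.6% of all genes. Their median log2 fold change was -0.28, against 0.01 over all genes. SMC4, a condensin subunit, was at 385 and 432 CPM and fell to 155 and 186 CPM (log2 fold change -1.26, SE 0.09, adjusted p = 7.3e-08), while the RACK1 libraries were at 412 to 423 CPM. RACGAP1, of the centralspindlin complex, went from 137 and 131 CPM to 72.3 and 64.8 CPM (log2 fold change -0.97, SE 0.07, adjusted p = 1.3e-07). Cyclin B1 (CCNB1) fell from 272 and 252 CPM to 183 and 169 CPM, AURKA, the spindle kinase, from 105 and 105 CPM to 70.05 and 65.6 CPM, and KIF20A, a cytokinesis kinesin, from 93.6 and 99.7 CPM to 58.2 and 57.8 CPM. Each of these 5 genes had siTARG1 libraries below both siControl libraries. The exceptions included SGO1, which protects cohesion at centromeres, at 0.601 (SE 0.11, adjusted p = 4.0e-04), and the phosphatase CDC25B at 0.595 (SE 0.09, adjusted p = 1.4e-04). Most of the list has neither set of words, and those 41 genes had the same median of -0.28, with 26 lower and 2 higher. Since they are most of the list, their median lies close to its own, and the part of the words was not tested. The list lay at a median of -0.24 from the RACK1 mean in siTARG1 and of -0.03 in siControl.

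The 56 DNA replication genes had a share of calls in both directions together (46.4%) near the 46.6% of all genes. Well-counted genes, as 54 of them were, passed in 52.4%. By direction they leaned upward, 20 higher and 6 lower, where 23.5% of all genes were higher and 23.1% lower. Their median was 0.14, or 0.09 without siTARG1 1. MCM3, a subunit of the replicative helicase, was at 105 and 97.8 CPM against 196 and 180.3 CPM (log2 fold change 0.89, SE 0.07, adjusted p = 1.9e-07), and ORC6, of the origin recognition complex, at 19.9 and 19.4 CPM against 39.7 and 37.6 CPM (log2 fold change 0.98, SE 0.08, adjusted p = 3.4e-07). RPA2, a subunit of the single-strand binding complex RPA, was the lowest, at -0.74 (SE 0.07, adjusted p = 1.7e-06). In homologous recombination and the Fanconi pathway 13 of 44 genes were higher and 1 lower, a share of 31.8% against 46.6% of all genes. NBN, of the MRN break-sensing complex, was at 36.3 and 39.4 CPM against 71.5 and 82.3 CPM (log2 fold change 1.02, SE 0.08, adjusted p = 2.7e-07), and the ubiquitin ligase RNF168 was the gene that fell, at -0.799 (SE 0.08, adjusted p = 1.6e-06). G1 cyclins and inhibitors were split, 5 higher and 4 lower of 20. Of 12 replication-dependent histone genes tested 1 passed as lower, and that count was 2 without siControl 1, siTARG1 1 or siTARG1 2.

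Targets of p53 had a high share of calls (75% against 46.6% of all genes) and no common direction, 10 higher and 8 lower of 24. CDKN1A and FAS, a death receptor, were the lowest, FAS at 94.96 and 96.5 CPM against 30.9 and 33.5 CPM (log2 fold change -1.57, SE 0.08, adjusted p = 4.6e-09). SESN2, a stress-induced inhibitor of mTORC1, was at 21.5 and 15.6 CPM against 40.9 and 30.7 CPM (0.94, SE 0.14, adjusted p = 1.1e-04) and RRM2B, a ribonucleotide reductase subunit, at 14.3 and 16.02 CPM against 27.3 and 30.7 CPM (0.94, SE 0.09, adjusted p = 1.4e-06). For RRM2B the RACK1 libraries, at 66.3 to 70.3 CPM, were above both arms. Among apoptosis regulators 9 were higher and 7 lower of 30, with CYCS, cytochrome c, at 52.3 and 62.9 CPM against 130.4 and 167 CPM (1.37, SE 0.12, adjusted p = 5.8e-07). CYCS holds words of both sets.

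Cholesterol synthesis was the list with the lowest median among all 43, -0.29, with 14 of 24 genes lower and 4 higher. Its share of calls was 75%, against 46.6% of all genes. MSMO1, the sterol C4-methyl oxidase, was at 135 and 142 CPM and fell to 39.8 and 42.4 CPM (log2 fold change -1.75, SE 0.08, adjusted p = 1.7e-09). TM7SF2, a sterol reductase, fell from 98.5 and 97.5 CPM to 46.5 and 45.4 CPM (-1.09, SE 0.07, adjusted p = 3.6e-08), and INSIG1, which retains the sterol sensor in the endoplasmic reticulum, from 76.6 and 82.1 CPM to 45.00 and 45.1 CPM (-0.82, SE 0.08, adjusted p = 1.2e-06). Squalene epoxidase (SQLE) at 0.53 (SE 0.08, adjusted p = 9.4e-05) and STARD4, a sterol carrier, at 0.52 (SE 0.08, adjusted p = 1.4e-04) were higher. The 19 genes with neither set of words, most of the list, had a median of -0.31, with 12 lower and 2 higher, and the part of the words was not tested. In fatty acid and lipid synthesis 7 were lower and 7 higher of 24. The lower ones were led by ACSS2, acetyl-CoA synthetase, at 183 and 155 CPM against 54.3 and 53.6 CPM (-1.65, SE 0.08, adjusted p = 4.4e-09), malic enzyme ME1 (-1.503, SE 0.08, adjusted p = 1.0e-08), and the desaturases FADS2 and FADS1, which fell from 157 and 165 CPM to 75.5 and 69.2 CPM and from 392 and 394 CPM to 186 and 179 CPM. None of the rises reached 0.5 log2 units, the highest being ACSL1 at 0.46 (SE 0.07, adjusted p = 7.2e-05).

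Antigen presentation and the stress response of the endoplasmic reticulum leaned upward. In the MHC class I list 9 of 16 genes were higher and 1 lower (62.5% against 46.6% of all genes), with a median of 0.29. HLA-B was at 57.9 and 50.3 CPM against 96.3 and 91.00 CPM (0.79, SE 0.08, adjusted p = 1.8e-06), HLA-C at 174 and 146 CPM against 296 and 249 CPM (0.77, SE 0.09, adjusted p = 1.5e-05), and B2M, the light chain, at 455 and 499 CPM against 582 and 693 CPM (0.42, SE 0.09, adjusted p = 0.0012). The RACK1 libraries were near the siTARG1 level for HLA-B, at 80.8 to 102 CPM, and near the siControl level for B2M, at 433 to 474 CPM. Counts of HLA genes can be shared between near-identical copies, since reads that match several places were kept. Of 38 genes of the unfolded protein and integrated stress response 18 were higher and 7 lower (65.8% called), with a median of 0.21. ATF4, the response's transcription factor, was at 402 and 402 CPM against 528 and 527 CPM (0.39, SE 0.06, adjusted p = 1.5e-04), HSPA5, the chaperone BiP, at 243 and 225 CPM against 292 and 314 CPM (0.38, SE 0.07, adjusted p = 8.6e-04), and EDEM1, which directs misfolded glycoproteins to degradation, at 21.7 and 21.7 CPM against 35.3 and 33.6 CPM (0.67, SE 0.08, adjusted p = 1.3e-05). PSAT1, of serine synthesis, went the other way, from 131 and 105 CPM to 46.00 and 45.1 CPM (-1.37, SE 0.09, adjusted p = 4.2e-08). It holds TGAACAT, as do 15.0% of all genes with a 3′ UTR, and a link to its level was not tested. XBP1 was lower as well, at -0.51 (SE 0.07, adjusted p = 4.8e-05).

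Lists of inflammation and proteostasis were mixed. Interferon-stimulated genes were 11 higher and 9 lower of 42, and both arms lay above the RACK1 mean by a median of 1.17 (siTARG1) and 1.20 (siControl) log2 units. NF-kB targets and cytokines were 9 higher and 7 lower of 28, with the chemokine CXCL1 at 98.3 and 116 CPM against 23.1 and 29.9 CPM (-2.01, SE 0.11, adjusted p = 9.0e-09) and the growth factor CSF1 at 15.9 and 14.7 CPM against 41.8 and 43.7 CPM (1.48, SE 0.09, adjusted p = 2.5e-08). Cytosolic chaperones were 5 higher and 5 lower of 20, with HSPA8 at -0.64 (SE 0.08, adjusted p = 1.4e-05). Proteasome genes were 1 higher and 10 lower of 29, with a median of -0.12, or -0.07 without siControl 1, and the 11 calls became 4 without siControl 1 and 7 without siControl 2. Autophagy and lysosome genes were 15 higher and 10 lower of 38, a share of 65.8% against 46.6% of all genes. The cathepsin CTSL was at 11.96 and 12.95 CPM against 25.3 and 28.00 CPM (1.098, SE 0.10, adjusted p = 9.3e-07) and the lysosomal membrane protein LAMP2 at 133 and 139 CPM against 211 and 239.9 CPM (0.73, SE 0.07, adjusted p = 2.4e-06). TFEB, which activates lysosomal genes, had the highest value of the list, 2.098 (SE 0.20, adjusted p = 1.2e-06), at low levels of 1.23 and 0.785 CPM and 4.801 and 4.04 CPM.

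Lists of energy metabolism and redox defence differed in their share of calls. Nuclear genes of oxidative phosphorylation were 8 higher and 12 lower of 67, a share of 29.9% against 46.6% of all genes. The complex II subunits SDHC and SDHB were the lowest, SDHC at 87.8 and 91.9 CPM against 36.3 and 41.8 CPM (-1.203, SE 0.08, adjusted p = 3.6e-08) and SDHB at 73.2 and 74.4 CPM against 41.7 and 42.3 CPM (-0.81, SE 0.07, adjusted p = 4.7e-07). Their RACK1 libraries were above both arms, at 110.04 to 113 and 116 to 131 CPM. Both genes hold TGAACATA, as do 3.81% of all genes with a 3′ UTR, and a link to their levels was not tested. Glycolysis genes were 2 higher and 7 lower of 23 (39.1% called). LDHA, lactate dehydrogenase, was at 719.7 and 749.7 CPM against 371 and 394 CPM (-0.94, SE 0.07, adjusted p = 9.2e-08), hexokinase HK2 at 74.6 and 73.5 CPM against 42.9 and 46.9 CPM (-0.72, SE 0.07, adjusted p = 2.5e-06), and the lactate exporter SLC16A3 at 90.8 and 83.9 CPM against 54.7 and 49.03 CPM (-0.75, SE 0.08, adjusted p = 5.7e-06). Hypoxia-inducible genes were 10 higher and 6 lower of 23 (69.6% called). HIF1A itself was at 302 and 347 CPM against 154 and 191 CPM (-0.91, SE 0.10, adjusted p = 4.8e-06), whereas ERO1A, an oxidase of the endoplasmic reticulum, was at 74.5 and 80.5 CPM against 183 and 201 CPM (1.31, SE 0.07, adjusted p = 1.2e-08). In the NRF2 and redox list 5 were higher and 10 lower of 32 (46.9% called), with a median of -0.15, or -0.10 without siControl 1. Besides PRDX3, thioredoxin reductase TXNRD1 fell from 554 and 574 CPM to 313 and 327 CPM (-0.82, SE 0.07, adjusted p = 3.3e-07) and NFE2L2, which encodes NRF2, from 260.1 and 284 CPM to 195 and 218 CPM (-0.396, SE 0.08, adjusted p = 6.5e-04), while mitochondrial superoxide dismutase SOD2 rose from 48.4 and 51.9 CPM to 97.96 and 103 CPM (1.004, SE 0.07, adjusted p = 8.6e-08).

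Growth factor signaling showed opposed changes between receptors of one family. Of 38 receptor tyrosine kinase and MAPK genes, 16 were higher and 8 lower, a share of 63.2% against 46.6% of all genes. EGFR was at 72.2 and 66.1 CPM against 175 and 175 CPM (1.34, SE 0.09, adjusted p = 3.4e-08), with RACK1 libraries at 176 to 209.7 CPM, and FGFR2 at 24.6 and 27.3 CPM against 48.4 and 57.1 CPM (1.03, SE 0.09, adjusted p = 8.8e-07). ERBB4, of the same family as EGFR, was at 108 and 115 CPM against 35.3 and 39.00 CPM (-1.59, SE 0.09, adjusted p = 8.1e-09), with RACK1 libraries at 143 to 167 CPM. EGFR holds none of the words and ERBB4 holds words of both sets. In the insulin, PI3K, AKT and mTOR list 12 were higher and 6 lower of 35 (51.4% called). DEPTOR, an inhibitor of mTOR, was at 23.9 and 24.1 CPM against 7.54 and 7.18 CPM (-1.702, SE 0.09, adjusted p = 7.5e-09) and PIK3R3, a regulatory subunit of PI3K, at 106 and 106 CPM against 46.9 and 47.3 CPM (-1.17, SE 0.07, adjusted p = 1.1e-08). AKT1 was higher at 0.33 (SE 0.07, adjusted p = 0.0011) and AKT2 lower, at 916 and 899 CPM against 613 and 562 CPM (-0.63, SE 0.07, adjusted p = 4.7e-06). Immediate early genes were 7 higher and 4 lower of 20, with JUN at -0.504 (SE 0.08, adjusted p = 1.4e-04) and JUNB at 0.94 (SE 0.08, adjusted p = 7.2e-07).

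Receptors and transducers of the TGF-beta superfamily were 11 higher and 8 lower of 30, a share of 63.3% against 46.6% of all genes. The activin receptor ACVR2B was at 86.96 and 86.9 CPM against 22.4 and 22.8 CPM (-1.94, SE 0.08, adjusted p = 5.6e-10) and the BMP receptor BMPR2 at 47.1 and 55.6 CPM against 20.95 and 25.4 CPM (-1.14, SE 0.12, adjusted p = 3.4e-06), and both hold lower words, BMPR2 together with GAATATA. The transducers SMAD5, at 43.9 and 47.5 CPM against 70.6 and 80.8 CPM (0.73, SE 0.08, adjusted p = 8.5e-06), and SMAD2, at 0.53 (SE 0.07, adjusted p = 3.4e-05), were higher. In the WNT list 12 were higher and 6 lower of 32 (56.25% called). Beta-catenin (CTNNB1) was at 432 and 403 CPM against 239 and 240.1 CPM (-0.801, SE 0.07, adjusted p = 4.4e-07) and its scaffold AXIN1 at 0.69 (SE 0.08, adjusted p = 1.1e-05). Notch genes were 6 higher and 5 lower of 22, with the ligand JAG1 at 167 and 161 CPM against 73.3 and 76.3 CPM (-1.13, SE 0.08, adjusted p = 4.8e-08) and the target HES1 at -0.89 (SE 0.08, adjusted p = 7.5e-07). The 11 Notch calls became 7 without siControl 1. For JAG1 the RACK1 libraries, at 458 to 522 CPM, were well above both arms. YAP targets and Hippo genes were 6 higher and 6 lower of 21.

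Epithelial and matrix genes changed on both sides. CDH1, or E-cadherin, was at 105 and 105 CPM against 296 and 297 CPM (1.497, SE 0.07, adjusted p = 1.7e-09), with RACK1 libraries between, at 169.97 to 186 CPM. CDH2, or N-cadherin, was at 338 and 353 CPM against 165 and 184 CPM (-0.98, SE 0.07, adjusted p = 1.2e-07), and fibronectin (FN1) was lower at -0.62 (SE 0.08, adjusted p = 2.3e-05). Epithelial junction genes were 6 higher and 6 lower of 26, and mesenchymal genes 5 higher and 8 lower of 17. The 13 mesenchymal calls became 8 without siControl 1, and the 12 epithelial calls became 7 with only the 4 siRNA libraries. The simple-epithelium keratins KRT18 and KRT8 were at 1323 and 1259.6 CPM against 505 and 535 CPM (-1.31, SE 0.08, adjusted p = 1.8e-08) and at 1195 and 1130.1 CPM against 554 and 544 CPM (-1.08, SE 0.07, adjusted p = 3.2e-08). Both have many pseudogenes, and their counts are less certain for it. In all, 2 keratins were higher and 5 lower of 15. Integrin and matrix genes were 10 higher and 11 lower of 34, a share of 61.8% against 46.6% of all genes. The hyaluronan receptor CD44 was at 27.97 and 28.4 CPM against 12.6 and 14.7 CPM (-1.05, SE 0.10, adjusted p = 1.2e-06) and collagen COL12A1 at -1.09 (SE 0.08, adjusted p = 1.2e-07). The laminin chain LAMB3 was at 10.2 and 8.99 CPM against 24.5 and 20.2 CPM (1.22, SE 0.11, adjusted p = 8.0e-07). Ovarian carcinoma markers were 4 higher and 6 lower of 16, fibroblast and endothelial markers 1 higher and 2 lower of 7, and immune markers 3 higher and 1 lower of 8.

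Ribosomal proteins had a low share of calls, and other translation genes were nearer to the background. Of 70 cytosolic ribosomal protein genes 3 were higher and 1 lower, 5.71% against 46.6% of all genes, and their median was 0.02. The 4 calls became 2 without siControl 1, siControl 2 or siTARG1 1. RACK1, a component of the small ribosomal subunit, was at 4622 and 4516 CPM against 4664 and 4241 CPM (-0.04, SE 0.08, adjusted p = 0.72). Initiation factors were 6 higher and 10 lower of 37. EIF4EBP1, the translational repressor 4E-BP1, was at 239 and 214 CPM against 66.7 and 64.6 CPM (-1.79, SE 0.07, adjusted p = 8.1e-10) and the helicase cofactor EIF4B at 898 and 958 CPM against 1482 and 1565 CPM (0.72, SE 0.07, adjusted p = 1.6e-06). Ribosome biogenesis genes were 9 higher and 6 lower of 41, with RRN3, an RNA polymerase I factor, at 137 and 136 CPM against 69.8 and 71.3 CPM (-0.95, SE 0.07, adjusted p = 7.5e-08). Spliceosome genes were 3 higher and 12 lower of 40, led by SNRPE at 141 and 142 CPM against 78.1 and 80.6 CPM (-0.84, SE 0.07, adjusted p = 3.9e-07), and the 15 calls became 9 without siControl 1. Chromatin regulators were 11 higher and 11 lower of 49, and the 22 calls became 14 without siControl 2.

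Stress granule proteins, the setting in which the study examined TARG1, were 10 higher and 5 lower of 29. This share of 51.7% was near the 46.6% of all genes and the 52.4% of well-counted genes. G3BP1, the granule nucleator, was at 489 and 508 CPM against 456 and 498 CPM (-0.06, SE 0.07, adjusted p = 0.48). Its paralog G3BP2 was at 432 and 447 CPM against 246 and 263 CPM (-0.79, SE 0.07, adjusted p = 3.9e-07) with RACK1 libraries near siTARG1, at 271 to 278 CPM, and CAPRIN1, a G3BP partner, at 837 and 861 CPM against 503 and 539.9 CPM (-0.703, SE 0.07, adjusted p = 1.8e-06). TIA1 and PABPC4, RNA-binding proteins of the granules, were higher at 0.78 (SE 0.09, adjusted p = 8.0e-06) and 0.798 (SE 0.07, adjusted p = 8.8e-07). The 15 calls became 9 without siControl 1. Genes of ADP-ribosylation were called in 30.0% (mono-ADP-ribosyl transferases) and 53.8% (poly-ADP-ribose enzymes and hydrolases), against 46.6% of all genes. Among mono-ADP-ribosyl transferases 2 were higher and 1 lower of 10, and PARP14 was at 890.2 and 744 CPM against 896 and 906 CPM (0.14, SE 0.08, adjusted p = 0.19), not past the threshold, with an adjusted p of 0.02 and a log2 fold change of 0.29 without siControl 1. Among poly-ADP-ribose enzymes and ADP-ribosyl hydrolases 5 were higher and 2 lower of 13, OARD1 being 1 of the 2, with PARP2 at 0.68 (SE 0.10, adjusted p = 9.6e-05), the tankyrases TNKS2 at 0.53 (SE 0.08, adjusted p = 9.8e-05) and TNKS at 0.48 (SE 0.09, adjusted p = 4.7e-04) and the PARP1 cofactor HPF1 at -0.46 (SE 0.08, adjusted p = 2.0e-04). In the RNA interference machinery 4 were higher and 3 lower of 13, and the 7 calls became 4 without siControl 1. AGO2, the slicing Argonaute, was at 74.7 and 64.9 CPM against 118 and 124 CPM (0.79, SE 0.10, adjusted p = 1.6e-05) with RACK1 libraries above both arms, at 134 to 168 CPM, and TNRC6B, an Argonaute partner in silencing, at 104 and 105 CPM against 56.6 and 56.3 CPM (-0.89, SE 0.08, adjusted p = 1.4e-06).

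**Figure D5:**
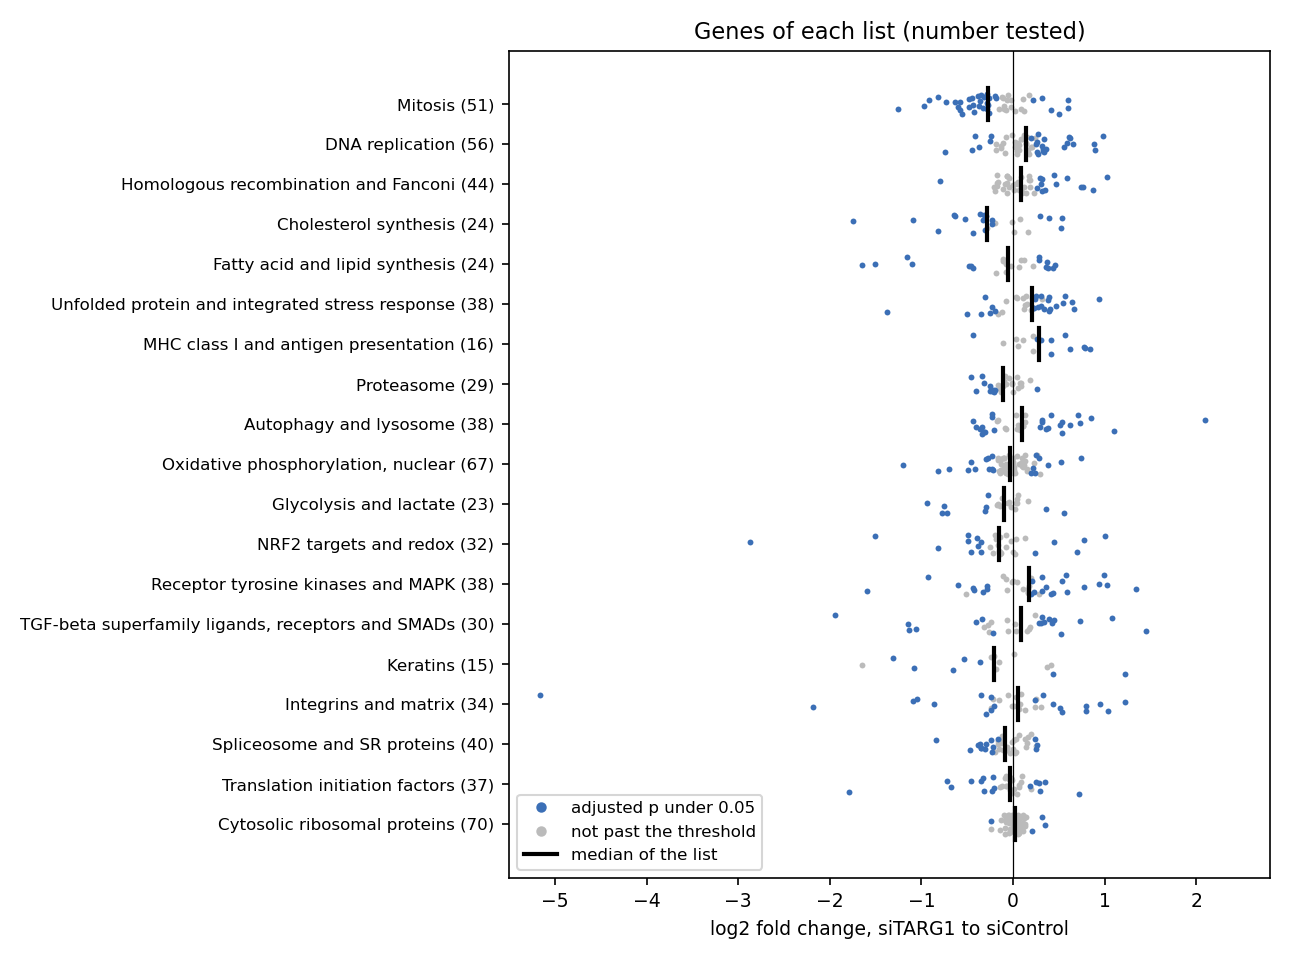
Log2 fold change of siTARG1 to siControl (horizontal axis) for the tested genes of 19 lists (vertical axis, with the number tested), with 1 point per gene, blue past an adjusted p of 0.05 and grey otherwise, and a black bar at the median of the list. The bars of cholesterol synthesis (-0.29) and mitosis (-0.28) lie farthest left and that of MHC class I (0.29) farthest right, while cytosolic ribosomal proteins cluster at 0. The point at -5.16 is COL3A1, which had 0 counts in both siTARG1 libraries, so its fitted value is no bound.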

How the data were processed

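Total RNA of OVCAR3 cells was sequenced in 4 siRNA and 4 RACK1 libraries with a stranded total RNA kit. The authors removed rRNA and contaminant reads with Bowtie 1.1.2, aligned the rest to a GRCh37 transcriptome of Gencode 24 with TopHat2 2.1.1, keeping up to 64 places per read, and counted alignments of 25 to 51 bases with Plastid. The deposited values are estimated counts per gene and region, not whole and not normalized, and were rounded here. Multi-mapping reads make near-identical genes less certain, and whether counting used strand is not given in the sources used here.

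Of 36595 transcript names, 94.7% were matched to gene symbols of Gencode 44 on GRCh37. Of 20165 rows, 553 had no match (1.19% of counts) and 279 joined several genes (3.18%). Exon counts of all 8 libraries were fitted as 4 groups with edgeR 4.0.16 (R 4.3.3), using TMM scaling, the tool's filter on low counts and its quasi-likelihood test, with 4 residual degrees of freedom. SE is that of the log2 fold change, and a gene passed at a Benjamini-Hochberg adjusted p under 0.05 over 14024 genes. The test of 3′ UTR against coding sequence needed a mean of 50 counts per region. The scripts were tested on simulated data. Alternatives were DESeq2 1.42.0, RLE scaling, other filters, fewer libraries, a replicate block, summed rows and coding-sequence counts.

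The members, the 43 gene lists and the tests were chosen with earlier results of these data known. Genes named by rule were those the study names, the 15 highest and 15 lowest well-counted genes past the threshold whose siRNA groups do not overlap, the 2 highest and 2 lowest well-counted members past the threshold of each list, and the genes past the 3′ UTR test. Other list members were named after their values were seen, to show the range of a list. The total count limits precision.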

Additional observations from a re-analysis of the deposited data

How the results depend on the processing

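OARD1 was lower past the threshold in every alternative run, with log2 fold changes from -4.03 to -3.66. The number of genes past the threshold, 6537, was 5947 with DESeq2 (5930 of them shared), 5698 with only the 4 siRNA libraries, 5878 with coding-sequence counts, and 5254 to 6195 when 1 library was left out. A replicate block gave 6559 calls, 6441 of them shared, and changed the call of none of the 179 genes named by rule. The labels do not say what a shared replicate number marks. The deviations of the first replicates from their group means correlated at 0.67 across genes, and with 2 pairs a shared batch or day was not tested. No named gene reversed. DESeq2, RLE scaling, other filters and summed rows kept the call of all 179, and leaving out siControl 1, the most influential library, ended the call of 10.

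The test of 3′ UTR against coding sequence was the least stable, with 5 calls, 0 with only the 4 siRNA libraries, 2 with the replicate block and 0 to 7 when 1 library was left out. The cause was not tested. The count of genes with RACK1 levels near siControl, 1053, was 231 when only changes over 2-fold were counted, because fewer genes enter. The median adjusted for length and GC content of genes with GAACATA was -0.17, and it was -0.15 in well-counted genes, -0.14 without the adjustment and -0.18 to -0.15 with 1 library left out. That of genes with CGAATAT was 0.21, and 0.18 to 0.23 with 1 library left out.

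With 2 libraries per group the tests have few degrees of freedom, the RACK1 libraries differ in treatment and experiment, and the few genes and lists named at low counts are less precise.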
